A study of Mus musculus with 10 samples.

Results

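Glycosaminoglycans are long sulfated sugar chains that cells build on the core proteins of proteoglycans. Both chondroitin sulfate and heparan sulfate start from a common tetrasaccharide linkage of xylose, 2 galactoses and glucuronic acid on a serine; the chain is then polymerized in the Golgi apparatus, partly epimerized and sulfated at defined positions, and the sulfate pattern sets which growth factors, chemokines and matrix proteins bind. Other O-glycans are short sugars on serine or threonine, such as the mucin-type glycans that start with N-acetylgalactosamine and the O-fucose, O-glucose and O-mannose of Notch receptors, thrombospondin repeats and dystroglycan. In tumors, proteoglycans and mucin-type glycans are known as parts of the matrix and of the cell surface.

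The genes described here are the 83 of 21959 genes in the expression table that its KEGG annotation places in chondroitin and dermatan sulfate biosynthesis (ko00532, 21 genes), heparan sulfate and heparin biosynthesis (ko00534, 24 genes) or other types of O-glycan biosynthesis (ko00514, 43 genes). The 5 genes in both glycosaminoglycan pathways are the enzymes of the common linkage, which leaves 16 genes for chondroitin or dermatan sulfate alone and 19 for heparan sulfate alone. No gene was shared between the O-glycan pathway and the glycosaminoglycan pathways, and 20 of the 43 O-glycan genes were also annotated to mucin-type O-glycans. The genes were chosen by annotation and not by their values in these tumors.

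Messenger RNA was sequenced from 10 subcutaneous tumors of the mouse mammary carcinoma line 4T1, taken after 21 days from female BALB/c mice that were obtained at an age of 5 to 6 weeks, 1 library per mouse. The exercise group (E, 5 mice) had voluntary wheel running and the non-exercise group (NE, 5 mice) had no intervention. All mice carried the same injected line and no other treatment was named, so that the groups differed by wheel running only as far as the labels state. The deposited table held 15045613 to 20646763 counted reads per tumor in E and 18706032 to 23092251 in NE. The members took 0.440 to 0.471% of the reads in E and 0.354 to 0.441% in NE.

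The tumors were also compared with marker genes. The 8 carcinoma or epithelial markers summed to 7.98 to 14.1 FPKM in 9 tumors and to 62.0 FPKM in NE5, where Krt14 was at 30.3 and Krt5 at 13 FPKM against at most 0.358 and 0.0883 FPKM elsewhere. Epcam was at 0.244 to 1.41 FPKM (read counts scaled by gene length and library size), Krt8 at 0.00 to 0.618 FPKM, Krt18 at 0.0603 to 1.46 FPKM and Cldn4 at 0.00 to 0.180 FPKM. These 4 defining epithelial markers thus stayed below 1.5 FPKM in all 10 tumors, while Cdh1 was at 1.42 to 4.44 FPKM and Krt19 at 4.59 to 12.6 FPKM. The 8 fibroblast markers summed to 1810 FPKM in E5, to 123 FPKM in NE1 and to 260 to 600 FPKM in the other tumors. The 12 skeletal muscle markers summed to 13550 FPKM in NE4 (2.77% of its reads), to 1989 FPKM in E2 and to 5.02 to 829 FPKM in the others. The 6 differentiated keratinocyte markers stood at 12.8 FPKM in NE5 and below 0.82 FPKM elsewhere. In bulk tissue, fewer cells of a type and less RNA per cell cannot be told apart. None of 10 marker scores differed between E and NE by an exact two-sided permutation test (smallest p = 0.0952, for the epithelial markers, which were lower in E; without NE1 the exact p was 0.0317). At an unadjusted p of at most 0.05 in edgeR, 2 of 3 tested epithelial markers were lower in E and 3 of 6 tested neutrophil markers and 1 of 8 macrophage markers higher. Cdh1, the other tested epithelial marker, had a log2 fold change of 0.16. The neutrophil markers S100a8 and S100a9 stood at 101.2 and 189.5 FPKM in E5, against at most 6.28 and 10.2 FPKM elsewhere. The difference in neutrophil score was 0.586, and 0.0573 at its lowest without 1 tumor. E5 also had the highest sums of the endothelial, macrophage and neutrophil markers, NE1 the lowest of the muscle, macrophage, neutrophil, mast cell and adipocyte markers, and NE4 the highest of the mast cell and adipocyte markers. Apart from values given without a tumor, the part of these cell types in the results below was not tested.

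Of 73 members tested with edgeR's quasi-likelihood test, 0 reached both a 2-fold change and a false discovery rate (FDR) no higher than 0.05, the limits for a call; among all 13517 genes tested 0% were called, and the smallest FDR of a member was 0.897. At an unadjusted p of at most 0.05, 13 members were higher in E and 1 was lower, which is 17.8% and 1.37% of the 73; among all genes tested 2.57% were higher and 2.29% lower. The log2 fold change of E over NE was above 0 for 55 of the 73 members (75.3%), against 46.0% of all genes tested and 46.1% of the 11311 genes with a mean of at least 1 FPKM; without TMM, edgeR's correction for composition, it was 82.2% of members against 55.2% of all genes. The median log2 fold change was 0.14 for the members and -0.01 for all genes tested. The members were measured in the same 10 tumors and are not independent of each other, so these shares are descriptions with no p. For none of the 73 members did the 5 E values all lie on one side of the 5 NE values on the TMM-scaled scale; among all genes 0.436% lay wholly higher in E and 0.289% wholly lower. The 14 members at an unadjusted p of at most 0.05 ranged from -0.24 to 0.34 on the log2 scale; larger fold changes, up to 1.16 for Gxylt2 and down to -0.84 for Extl1, belonged to members with low levels and unadjusted p-values above 0.05.

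**Figure D1:**
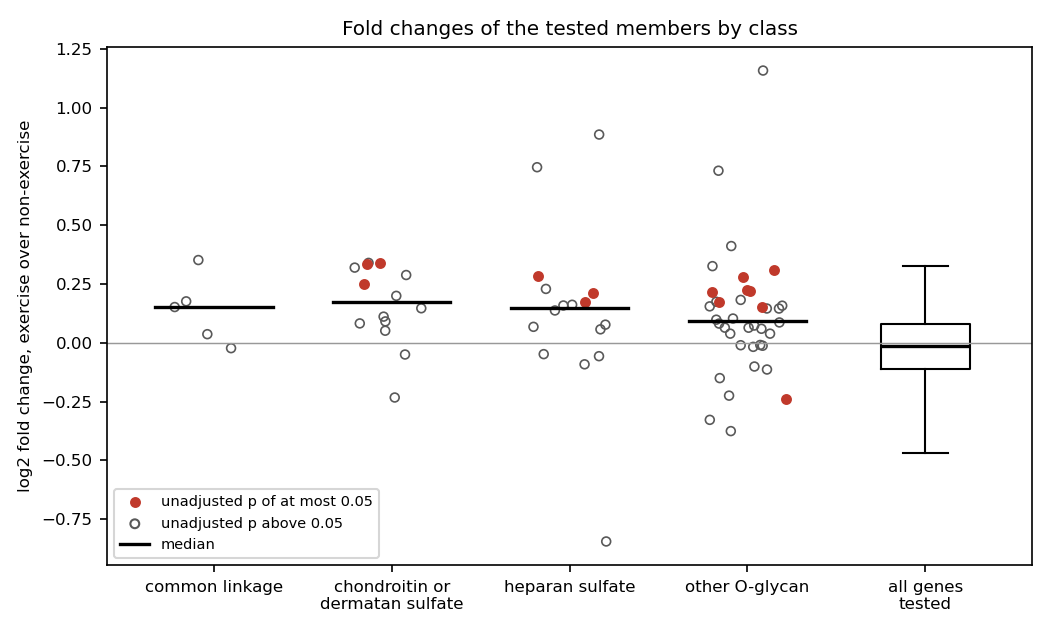
Log2 fold change (E over NE, edgeR) of each of the 73 tested members by class, one point per gene, filled where the unadjusted p was at most 0.05; black bars are class medians, and the box shows the median, quartiles and 5th to 95th percentiles of all 13517 genes tested. The class medians lie at 0.15, 0.17, 0.15 and 0.09, above the all-gene median of -0.01, and every filled point but C1galt1c1 lies above 0.

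By class, the median log2 fold change was 0.15 for the 5 linkage enzymes, 0.17 for the 14 tested chondroitin or dermatan sulfate enzymes, 0.15 for the 16 tested heparan sulfate enzymes and 0.09 for the 38 tested O-glycan enzymes. The linkage median was 0.07 without NE4, and the chondroitin median was 0.30 without E1. The members at an unadjusted p of at most 0.05 were 0 of 5, 3 of 14, 3 of 16 and 8 of 38, and the only one lower in E was an O-glycan gene. The other 10 members were not tested because of low counts: Chsy3, Chst7, Ndst4, Hs3st2, Hs6st3, Galnt5, Galnt14, Galntl5, St6gal2 and Colgalt2. Galntl5 had no read in any tumor. At 3 reads, the level that a count of 0 allows was at most 0.199 CPM (reads scaled to library size) in any tumor, for counting error only.

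Single tumors weighed on these shares. NE4, the tumor with the most skeletal muscle RNA, held the lowest of the 10 values for 28 of the 73 members (22.1% of all genes tested were lowest there), and E5, the tumor with the most fibroblast RNA, held the highest for 20 (11.9% of all genes). Without E5, 6 members were at an unadjusted p of at most 0.05, all higher in E (8.22% of 73, against 1.51% of all genes). Without NE3, 5 were, all higher (6.67% of 75, against 1.56%). Without NE4 the counts were 9 higher and 1 lower (2.44% and 2.26% of all genes). Without E5 and NE4 together 5 were higher (6.85%, against 1.25%). The share of members with a log2 fold change above 0 stayed between 73.0% and 81.3% when any 1 tumor was left out. That of all genes stayed between 44.7% and 48.7%. Of the 14 members at an unadjusted p of at most 0.05, 14 kept their direction and 4 kept the threshold, Chpf2, Galnt11, Pofut1 and B4galt2, in each of the 10 fits without 1 tumor.

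Summed over a class, the chondroitin enzymes stood at 160.9 ± 6.11 FPKM in E and 142.0 ± 16.3 FPKM in NE (SD, n = 5 and 5), with 152.7 to 168.9 in E and 113.5 to 152.0 in NE. The O-glycan enzymes stood at 475.7 ± 11.3 FPKM in E and 443.0 ± 21.8 FPKM in NE, with no overlap between 466.5 to 495.3 and 404.9 to 459.3. The heparan sulfate enzymes (207.3 ± 7.07 and 183.6 ± 23.3 FPKM) and the linkage enzymes (33.4 ± 2.06 and 30.2 ± 2.31 FPKM) overlapped between the groups. NE4 was the lowest tumor in each of the 4 sums. These sums add genes of unequal level and carry no test. They use FPKM, which holds no TMM factor, and sums scaled by TMM are not given. That factor was lowest for NE4 (0.951) and highest for E2 (1.02). It was 1.013 for E1 and 0.985 for NE5, whose chondroitin sums were close, at 152.7 and 151.1 FPKM. Divided by the factor, the sum of E1 falls below that of NE5. The separation of the chondroitin sums thus holds on the FPKM scale and not after TMM. That of the O-glycan sums is given for the FPKM scale only. How often sums over other sets of genes separate the groups was not computed.

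The common linkage begins with xylose, which Xylt1 and Xylt2 attach to the core protein. Xylt2 supplied 82.0 to 94.2% of the summed xylosyltransferase FPKM in every tumor. Xylt2 was at 12.3, 11.3, 12.9, 11.1 and 13.3 FPKM in E1 to E5 and at 13.3, 11.4, 10.2, 6.79 and 11.3 FPKM in NE1 to NE5. Xylt1 was at 1.70, 1.47, 1.41, 1.55 and 2.21 FPKM in E and at 0.821, 1.19, 1.24, 1.49 and 1.61 FPKM in NE. The NE values of Xylt1 started lower but reached into the E range, with a log2 fold change of 0.35 ± 0.20 (SE, unadjusted p = 0.101, edgeR). The first galactosyltransferase B4galt7 was at 7.63 to 9.04 FPKM in E and 6.82 to 8.03 FPKM in NE (0.15 ± 0.07, unadjusted p = 0.0536, edgeR), with 3 of the 5 E tumors above every NE tumor. B3galt6, which adds the second galactose, and B3gat3, which adds glucuronic acid, had log2 fold changes of 0.04 and -0.02. The mean over the 10 tumors ran from 1.47 FPKM for Xylt1 to 11.4 FPKM for Xylt2.

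**Figure D2:**
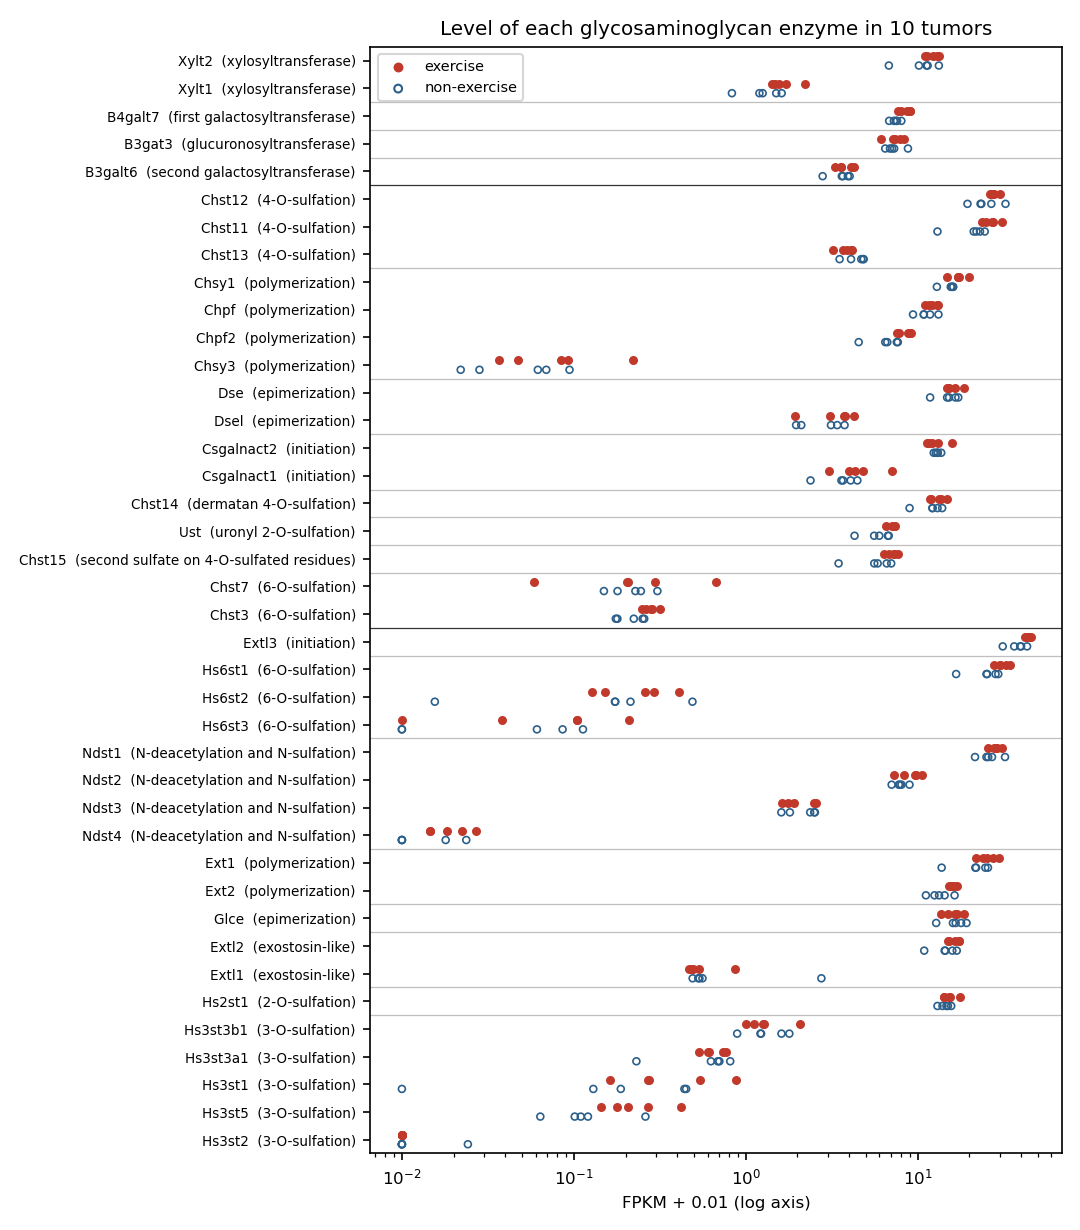
FPKM + 0.01 on a log axis for the 40 linkage, chondroitin or dermatan sulfate and heparan sulfate enzymes in each of 5 E tumors (filled) and 5 NE tumors (open), ordered by step, with dark lines between the 3 classes. One enzyme per step leads in several steps, Xylt2 and Hs6st1 among them, while Chsy3, Chst7, Hs6st2, Hs6st3, Ndst4 and most 3-O-sulfotransferases lie under 1 FPKM.

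In chondroitin and dermatan sulfate synthesis, the enzymes nominally higher in E were one polymerizing factor and sulfotransferases of the 4-O and 2-O positions. Chpf2, a factor with which chondroitin synthases elongate the chain, was at 9.0, 9.17, 7.62, 7.74 and 8.78 FPKM in E and at 7.66, 6.65, 6.47, 4.53 and 7.56 FPKM in NE. The ranges met only at the lower E and upper NE values, and the log2 fold change was 0.34 ± 0.12 (SE, unadjusted p = 0.0189, FDR = 0.897, edgeR). Without NE4 it was 0.24 (unadjusted p = 0.0195, edgeR). Of its exon bases, 44.1% overlap those of Smarcd3 on the opposite strand (GENCODE, GRCm38), and whether reads were counted by strand is not stated, so reads of the pair may not be told apart; Smarcd3 had a mean of 4.07 FPKM. Among its relatives, Chsy1, the synthase with the highest level, had a log2 fold change of 0.15 ± 0.08 (unadjusted p = 0.0902, edgeR), and Chpf one of 0.08 ± 0.08. Chsy3, a second synthase, was at 0.0120 to 0.211 FPKM and was not tested.

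Chst11 and Chst12 place sulfate on carbon 4 of N-acetylgalactosamine and together made up 90.2 to 94.4% of the FPKM of the 3 chondroitin 4-O-sulfotransferases. Chst11 was at 23.6, 25.0, 30.9, 26.9 and 27.5 FPKM in E and at 22, 23.0, 21.2, 13 and 24.6 FPKM in NE (log2 fold change 0.34 ± 0.15, unadjusted p = 0.0412, edgeR). Only E1 lay within the NE range, and NE4 was far below the others. Chst12 was at 26.3 to 30.1 FPKM in E and 19.5 to 32.4 FPKM in NE (0.11 ± 0.11, unadjusted p = 0.319, edgeR). Chst13, the third enzyme for this position, was at 3.81 ± 0.384 FPKM in E and 4.39 ± 0.580 FPKM in NE, with a log2 fold change of -0.23 ± 0.13 (unadjusted p = 0.106, edgeR).

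The 4-O-sulfotransferases Chst11, Chst12 and Chst13 outweighed the 6-O-sulfotransferases Chst3 and Chst7 by far at the RNA level. The summed FPKM of the 4-O-sulfotransferases was 58.2 ± 2.73 in E and 50.2 ± 8.77 in NE, and that of the 6-O-sulfotransferases Chst3 and Chst7 was 0.547 ± 0.248 and 0.419 ± 0.0952. Chst14, which sulfates carbon 4 in dermatan sulfate after epimerization by Dse and Dsel, was at 13.1 ± 1.3 FPKM in E and 12.1 ± 1.86 FPKM in NE. Ust, which sulfates carbon 2 of the uronic acid, was at 6.53, 7.29, 7.08, 7.24 and 7.38 FPKM in E and at 5.97, 6.70, 5.57, 4.29 and 6.78 FPKM in NE (0.25 ± 0.11, unadjusted p = 0.0461, edgeR). Of the E tumors, 4 lay above all NE tumors. Chst15, which adds a further sulfate to 4-O-sulfated residues and is in neither sum, had a mean of 6.39 FPKM over the tumors. Its log2 fold change was 0.29 ± 0.15 (unadjusted p = 0.0830, edgeR), and 0.16 without NE4. The enzymes that add the first N-acetylgalactosamine, Csgalnact1 and Csgalnact2, had 0.32 ± 0.23 and -0.05 ± 0.09.

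In heparan sulfate synthesis, Extl3 adds the first N-acetylglucosamine, a complex of Ext1 and Ext2 elongates the chain, N-deacetylase/N-sulfotransferases open it to further change, Glce epimerizes it, and the 2-O-, 6-O- and 3-O-sulfotransferases complete it. Extl3 had the highest level of the class. It was at 45.4, 44.2, 43.8, 43.3 and 42.4 FPKM in E and at 43.3, 40.0, 36.4, 31.3 and 39.5 FPKM in NE, with a log2 fold change of 0.17 ± 0.07 (SE, unadjusted p = 0.0318, FDR = 0.897, edgeR). NE1 alone of the NE tumors reached into the E range.

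Ext2 was at 15.7, 16.2, 15.2, 15.9 and 17 FPKM in E and at 16.4, 14.3, 12.5, 11.2 and 13.3 FPKM in NE (0.21 ± 0.08, unadjusted p = 0.0223, edgeR). Again NE1 was the only NE tumor inside the E range. Its partner Ext1 had a similar fold change with a wider spread (0.23 ± 0.15, unadjusted p = 0.148, edgeR) and was at 25.7 ± 3.02 FPKM in E and 21.5 ± 4.67 FPKM in NE. The log2 ratio of Ext1 to Ext2 was 0.67 in E and 0.64 in NE. Ndst1 supplied 69.7 to 78.5% of the FPKM of the 4 N-deacetylase/N-sulfotransferases, and Ndst1, Ndst2 and Ndst3 had log2 fold changes of 0.08, 0.16 and -0.09.

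The heparan 6-O step rested on a single gene. Hs6st1 gave 96.9 to 99.7% of the FPKM of the 3 heparan 6-O-sulfotransferases in every tumor. Hs6st1 was at 27.8, 30.0, 34.5, 30.0 and 32.8 FPKM in E and at 29.4, 28.4, 25.4, 16.7 and 25.1 FPKM in NE (0.29 ± 0.13, unadjusted p = 0.0473, edgeR). Here E1 lay below NE1 and NE2. Without NE4 the log2 fold change was 0.18, and with the replicate number as a block the unadjusted p was 0.0514 in edgeR. Hs6st2 was at 0.118 to 0.400 FPKM in E and 0.00555 to 0.480 FPKM in NE, with its lowest value in NE1 and its highest in NE4. Hs2st1 and Glce, each the one gene of its step, had log2 fold changes of 0.06 and -0.06.

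The 3-O-sulfotransferases, which make the rarest modification, summed to 2.62 ± 0.651 FPKM in E and 2.30 ± 0.355 FPKM in NE. Hs3st3b1 led with 0.882 to 2.06 FPKM. Hs3st5 was at 0.134, 0.198, 0.168, 0.410 and 0.260 FPKM in E and at 0.0998, 0.111, 0.0913, 0.251 and 0.0539 FPKM in NE, on 5 to 33 reads a tumor. All NE tumors but NE4 lay below all E tumors, and the log2 fold change was 0.89 ± 0.45 (unadjusted p = 0.0761, edgeR), or 1.36 without NE4 (unadjusted p = 0.00626, edgeR). At these counts the order of tumors rests on a few reads.

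Among the O-glycan enzymes, the 18 polypeptide N-acetylgalactosaminyltransferases that start mucin-type glycans were dominated by Galnt1 and Galnt2, which supplied 70.8 to 76.6% of their summed FPKM. Galnt1 was at 58.9 ± 3.13 FPKM in E and 56.1 ± 5.63 FPKM in NE, and Galnt2 at 50.8 ± 4.01 and 47.5 ± 3.17 FPKM. Their log2 fold changes were 0.04 and 0.06. The nominally higher enzymes of this family had lower levels. Galnt11, which glycosylates Notch1 among others, was at 4.76, 5.06, 4.97, 5.37 and 4.94 FPKM in E and at 4.21, 4.79, 4.03, 3.32 and 3.90 FPKM in NE. It had the smallest p of all members, with 0.28 ± 0.08 (unadjusted p = 0.00748, FDR = 0.897, edgeR), and NE2 alone of the NE tumors lay above the lowest E value. Galnt4 was at 3.76, 4.11, 4.32, 4.35 and 5.04 FPKM in E and at 3.75, 3.68, 3.58, 3.55 and 3.52 FPKM in NE (0.22 ± 0.08, unadjusted p = 0.0209, edgeR). On the FPKM scale its groups did not overlap, and on the TMM-scaled scale they did. Of the exon bases of Galnt4, 8.25% overlap those of Poc1b on the same strand, which had a mean of 8.32 FPKM.

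C1galt1, which extends the first sugar to the core 1 structure, and its chaperone C1galt1c1 had log2 fold changes below 0. C1galt1c1 was at 9.49, 10.3, 9.54, 9.97 and 10.1 FPKM in E and at 9.09, 12.2, 13.1, 10.9 and 11.8 FPKM in NE, the only member lower in E at an unadjusted p of at most 0.05 (-0.24 ± 0.10, unadjusted p = 0.0452, edgeR). NE1 lay below all E tumors and the other 4 NE tumors above them. It passed that threshold in 1 of the 10 fits without 1 tumor, and its unadjusted p was 0.0634 in edgeR with the replicate number as a block. C1galt1 had -0.11 ± 0.13.

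**Figure D3:**
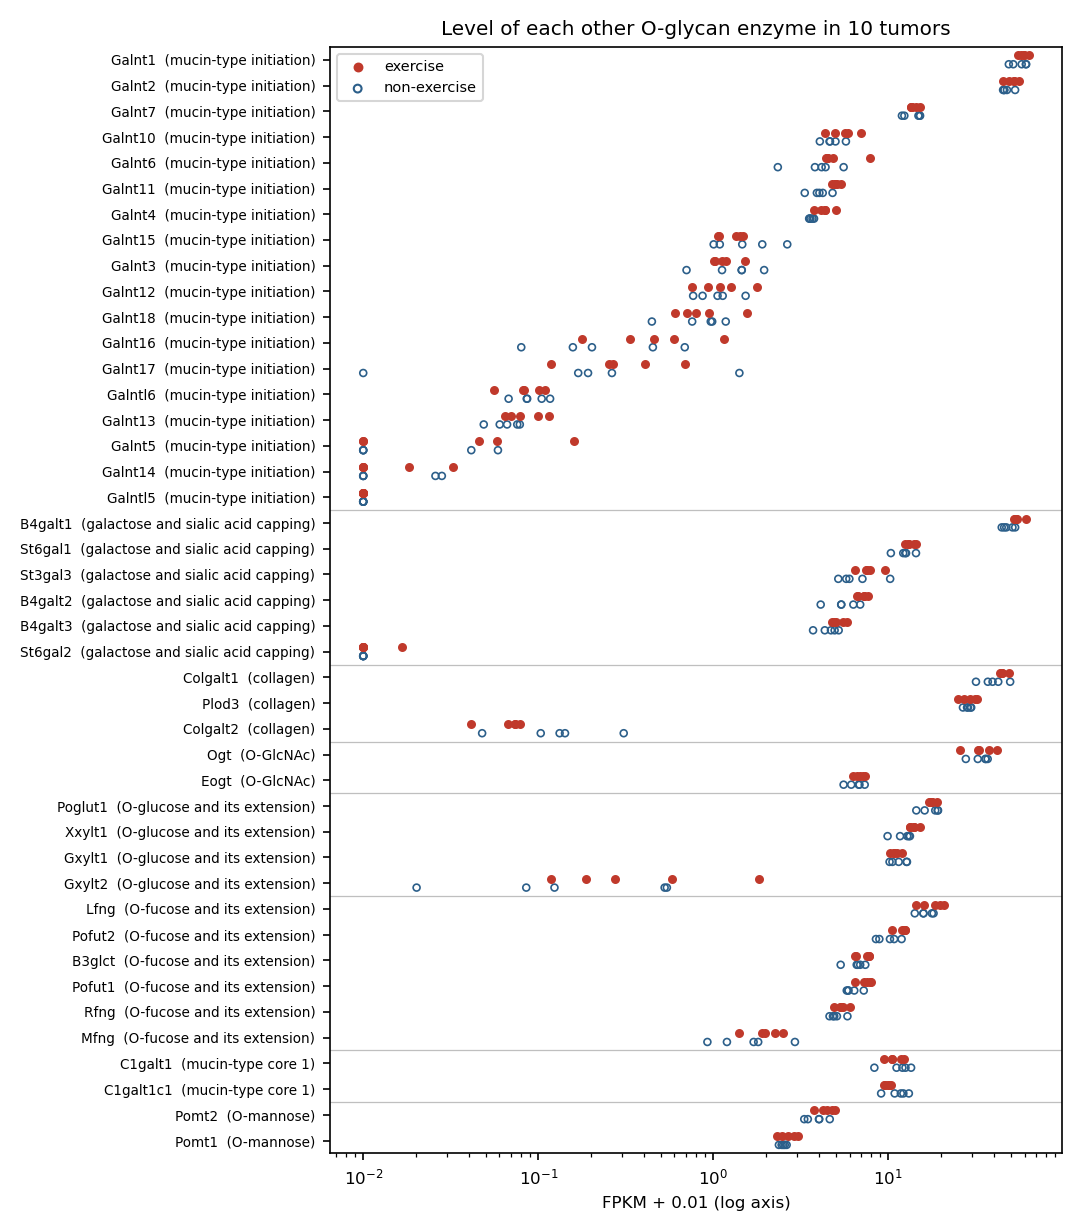
FPKM + 0.01 on a log axis for the 43 O-glycan enzymes in each of 5 E tumors (filled) and 5 NE tumors (open), grouped by the sugar they handle. Galnt1, Galnt2, B4galt1 and Colgalt1 have the highest means, with Colgalt1 between 31.7 and 49.6 FPKM, and Galntl5 at 0 in all 10 tumors, and Gxylt2 and Galnt17 spread widely between tumors.

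The O-fucose enzymes act on epidermal growth factor-like repeats, as in Notch, and on thrombospondin repeats. Pofut1, the enzyme for the former, was at 7.54, 7.94, 6.46, 7.80 and 7.26 FPKM in E and at 7.23, 5.91, 5.78, 5.88 and 6.38 FPKM in NE (0.22 ± 0.07, unadjusted p = 0.0105, edgeR). Pofut2, the enzyme for the latter, was at 12.5, 12.3, 10.5, 12.0 and 12.5 FPKM in E and at 11.9, 10.8, 8.88, 8.49 and 10.2 FPKM in NE (0.22 ± 0.08, unadjusted p = 0.0230, edgeR). In both genes E3 was the lowest E tumor and NE1 the highest NE tumor, and the log2 ratio of Pofut1 to Pofut2 stayed at -0.68 in E and -0.67 in NE. The fringe enzymes that extend O-fucose on Notch had log2 fold changes of 0.10 (Lfng), 0.18 (Mfng) and 0.07 (Rfng), each with an unadjusted p of at least 0.384 in edgeR.

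The 3 remaining nominally higher genes cap or extend the chains. B4galt1, a galactosyltransferase of many glycan types, was at 53.7, 54.2, 52.1, 52.8 and 61.3 FPKM in E and at 51.2, 47.2, 45.9, 44.4 and 53.0 FPKM in NE (0.15 ± 0.06, unadjusted p = 0.0346, edgeR). B4galt2, its close relative, was at 7.23, 6.58, 7.24, 6.71 and 7.65 FPKM in E and at 6.89, 6.30, 5.37, 4.10 and 5.37 FPKM in NE (0.31 ± 0.11, unadjusted p = 0.0210, edgeR). Xxylt1, which adds the last xylose to O-glucose glycans of Notch, was at 13.2 to 15.3 FPKM in E and 9.89 to 13.3 FPKM in NE (0.17 ± 0.08, unadjusted p = 0.0478, edgeR). In each of the 3 genes E5 was the highest tumor and NE4 the lowest. Of the exon bases of B4galt2, 28.2% overlap those of Ccdc24 on the same strand, which had a mean of 0.1 FPKM. The collagen enzymes Colgalt1 and Plod3 had log2 fold changes of 0.15 and -0.01, Ogt, which adds single N-acetylglucosamines inside the cell, had -0.01, and the O-mannose pair Pomt1 and Pomt2 had 0.06 and 0.16.

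**Figure D4:**
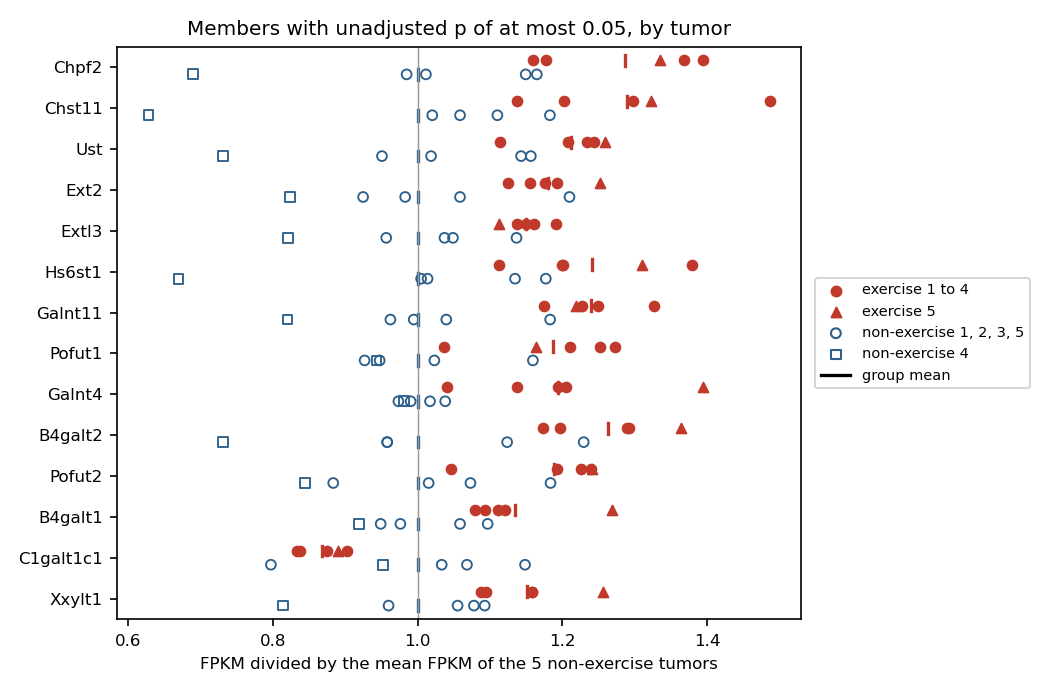
FPKM of the 14 members with an unadjusted p of at most 0.05, each divided by the mean FPKM of the 5 NE tumors, for every tumor; short vertical bars are group means, the triangle is E5 and the square NE4. The E values of the 13 higher members mostly lie between 1.0 and 1.4 times the NE mean, and NE4 is the lowest tumor in most rows.

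The balance between enzymes of the same step was compared within each tumor, since a ratio of FPKM values does not depend on library size. None of 9 log2 ratios differed between E and NE by an exact two-sided permutation test (smallest p = 0.159, adjusted p = 0.944 over the 9 ratios). The smallest p belonged to Chst11 over Chst12, with -0.05 ± 0.18 in E and -0.28 ± 0.26 in NE (SD, n = 5 and 5); Chst11 exceeded Chst12 in 2 tumors, E3 and E5. The other ratios differed by at most 0.15 between the group means, with Xylt1 over Xylt2 at -2.81 and -2.96 and Ndst1 over Ndst2 at 1.64 and 1.71.

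Members with low levels varied most between tumors. Of the 12 tested members with a mean below 1 FPKM, 4 were highest in E5 and 3 in NE4, while 6 were lowest in NE1 and 3 in NE5. The like shares over all genes below 1 FPKM were not computed. The coefficient of variation over the 10 tumors had a median of 12.8% for the 61 tested members with at least 1 FPKM (11.9% for all such genes) and of 61.4% for those 12 (37.1% for all such genes). Gxylt2, which adds xylose to O-glucose, was at 0.176, 0.265, 0.108, 0.570 and 1.82 FPKM in E and at 0.0102, 0.0754, 0.114, 0.517 and 0.533 FPKM in NE. Its highest value was in E5 and its lowest in NE1, the tumors with the highest and the lowest sum of the 8 fibroblast markers and also of the macrophage and neutrophil markers. Its log2 fold change was 1.16 ± 0.98 (unadjusted p = 0.263, edgeR) and 0.10 without E5. Galnt6 was likewise highest in E5 (7.80 FPKM, against 4.40 to 4.81 in the other E tumors) and lowest in NE1 (2.33 FPKM).

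Extl1, an exostosin-like glycosyltransferase, was at 0.525, 0.854, 0.459, 0.485 and 0.476 FPKM in E and at 0.520, 0.481, 0.528, 2.75 and 0.550 FPKM in NE. NE4 and then E2 were the highest, in the same order as the sums of the 12 skeletal muscle markers and of the 5 adipocyte markers. The log2 fold change was -0.84 ± 0.54 with NE4 and 0.09 without it. Galnt17 showed 1.40 FPKM in NE4 against 0.00 to 0.678 FPKM in the other 9 tumors, and its log2 fold change went from -0.33 to 1.15 without NE4 (unadjusted p = 0.183, edgeR).

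**Figure D5:**
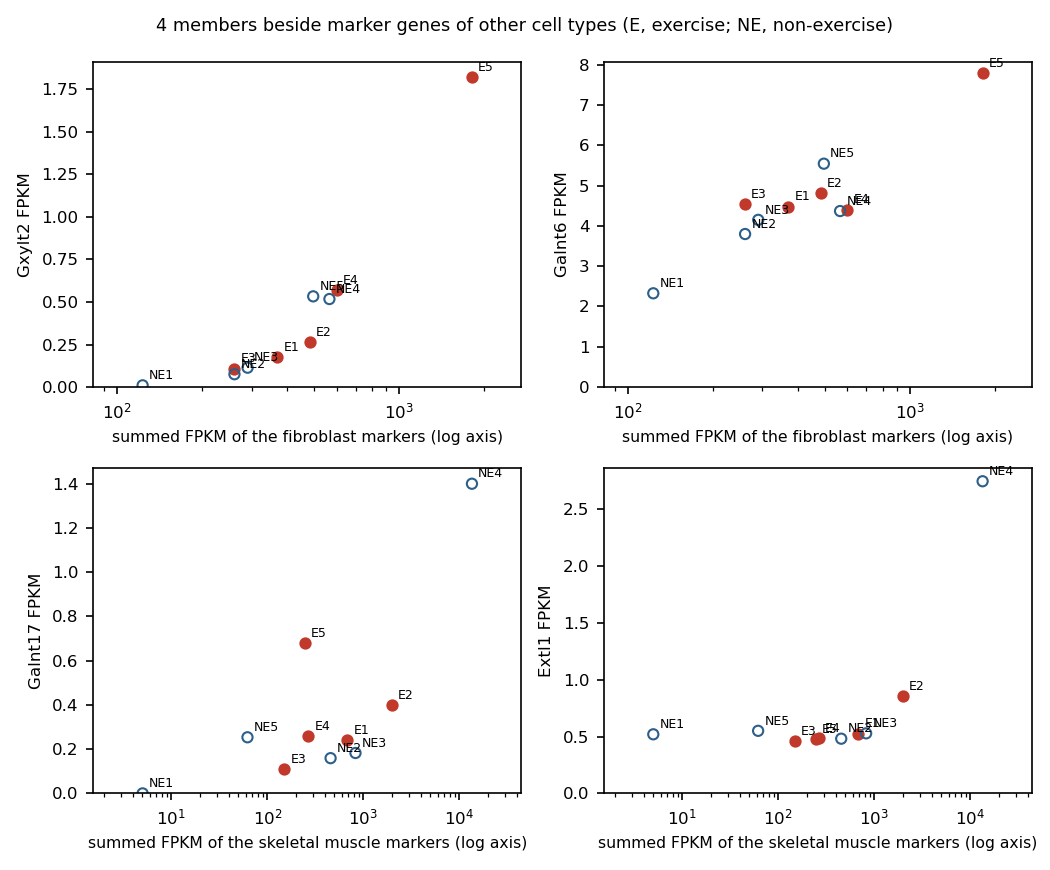
FPKM of 4 members (vertical axes) against the summed FPKM of marker genes of fibroblasts (upper panels) or skeletal muscle (lower panels) in each tumor. The horizontal axes of all 4 panels are log axes. Gxylt2 and Galnt6 are highest in E5, where the fibroblast sum is 1810 FPKM, and Galnt17 and Extl1 are highest in NE4, where the muscle sum is 13550 FPKM.

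Sequences upstream of the start sites were set beside the levels, because pairs of enzymes for one step differed so widely. Of the 83 members, 67 matched a promoter of RefSeq (GRCm38.p6, 250 bases before to 50 after the start). Only the first listed start of each gene was used. The median number of CpG dinucleotides in these 300 bases was 25 for the 25 members with at least 10 FPKM, 23 for the 24 with 1 to 10 FPKM and 17 for the 18 below 1 FPKM, against 20 for the promoters of genes tested and 7 for all 27025 promoters of the table. The letters GGGCGG, the GC box, stood on either strand in 92.0%, 62.5% and 44.4% of the 3 level classes, against 62.7% of the promoters of genes tested and 35.9% of all. The letters TATAAA stood on either strand in 2 of the 67 (2.99%), in 7.51% of the promoters of genes tested and in 14.2% of all. These shares describe letters in a window and no bound factor. The promoters of all genes were not split by level, so the 3 level classes have no like comparison. Of the 31 members with at least 10 FPKM, 25 matched, and Galnt1, Galnt2 and Extl3 were among those that did not. The 120 bases before the start of 2 pairs with a high and a low member are shown 5′ to 3′ on the strand of the gene, with CpG dinucleotides in capitals: Hs6st1 (chr1:36068280-36068399, plus strand), Hs6st2 (chrX:51681603-51681722, minus strand), Gxylt1 (chr15:93275180-93275299, minus strand) and Gxylt2 (chr6:100704614-100704733, plus strand).
Hs6st1: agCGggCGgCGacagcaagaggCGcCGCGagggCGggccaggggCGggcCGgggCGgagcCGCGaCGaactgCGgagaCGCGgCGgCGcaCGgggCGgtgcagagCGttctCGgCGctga
Hs6st2: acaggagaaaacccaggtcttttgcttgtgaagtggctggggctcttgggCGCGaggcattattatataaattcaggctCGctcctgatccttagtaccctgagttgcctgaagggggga
Gxylt1: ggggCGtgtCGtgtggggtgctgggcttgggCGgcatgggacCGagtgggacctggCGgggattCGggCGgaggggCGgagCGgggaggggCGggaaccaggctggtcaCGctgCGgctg
Gxylt2: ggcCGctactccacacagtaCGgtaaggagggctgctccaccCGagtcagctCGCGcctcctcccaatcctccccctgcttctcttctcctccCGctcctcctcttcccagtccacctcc
Hs6st1, at a mean of 28.0 FPKM, held 23 CpG and 5 GC boxes in these 120 bases, and Hs6st2, at 0.221 FPKM, held 3 CpG, no GC box and the letters TATAAA beginning 55 bases before the start. Gxylt1, at 11.2 FPKM, held 12 CpG and 4 GC boxes, and Gxylt2, at 0.419 FPKM, held 6 CpG and no GC box. These pairs were chosen after their values were seen, and not every gene has this order: Hs6st3 held 41 CpG in its 300 bases at a mean of 0.0646 FPKM, and St6gal1, at 12.9 FPKM, held 7 CpG against 13 in St6gal2, at 0.000657 FPKM, with a GC box in both.

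The rest of the pathway was described from fixed lists. No gene of these lists was called, and the shares of all genes tested given above (2.57% nominally higher, 2.29% nominally lower, 46.0% above 0) hold as the background of each count. Of 19 tested genes that supply sugar nucleotides, sulfate donors and their transporters, 1 was higher at an unadjusted p of at most 0.05, Slc35b2, the Golgi transporter of the sulfate donor (0.16 ± 0.07, unadjusted p = 0.0345, edgeR). Of the core proteins that carry the chains, 0 of 9 for chondroitin sulfate and 0 of 13 for heparan sulfate passed it, while 7 (77.8%) and 10 (76.9%) had log2 fold changes above 0. Cd44 stood at 118.7 ± 6.49 FPKM in E and 108.7 ± 15.8 FPKM in NE, and the syndecan Sdc4 at 126.4 ± 14.4 and 114.5 ± 18.1 FPKM.

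Of 18 tested genes that edit or degrade the chains, 2 were nominally higher (11.1%) and 16 had log2 fold changes above 0 (88.9%). Sulf2, which removes 6-O-sulfates from heparan sulfate outside the cell, was at 16.9 ± 2.83 FPKM in E and 13.2 ± 2.05 FPKM in NE (0.33 ± 0.12, unadjusted p = 0.0244, edgeR), and Arsb, the lysosomal 4-O-sulfatase of chondroitin sulfate, at 17.4 ± 1.87 and 14 ± 2.66 FPKM (0.28 ± 0.12, unadjusted p = 0.0445, edgeR). The hyaluronan synthases, whose product is not attached to protein, stood below 1 FPKM on average in both groups, with 0 of 3 past the threshold. Of 19 tested proteins that carry O-fucose, O-glucose or O-mannose, 3 were nominally higher (15.8%): Jag1 (0.29 ± 0.10, unadjusted p = 0.0165), Notch2 (0.15 ± 0.05, unadjusted p = 0.0167) and Thbs1 (0.52 ± 0.22, unadjusted p = 0.0396, edgeR). Of the 7 tested mucin-type genes on the fixed list that are no members, 1 was nominally higher and none lower. For comparison, of the 42 tested genes of N-glycan biosynthesis (ko00510) that are no members, 1 was nominally higher and 1 lower, 64.3% had log2 fold changes above 0, and their median was 0.04; this set was added after the members' values were seen, and the difference from the members was not tested.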

How the data were processed

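The authors prepared paired-end libraries, and used Hisat2 for alignment and Stringtie for expression, per the study's methods, which name a rat assembly although the identifiers are mouse; the build of the table was therefore not taken as known and its coordinates were not printed. They deposited 1 table with a raw read count and an FPKM per gene and tumor; how the whole-number counts were made is not given in the sources used here. The deposited FPKM equal the count per gene length and total count, with no TMM factor. Groups and replicate numbers came from the labels. No 2 libraries agreed within sampling noise (chi-square divided by its degrees of freedom was at least 8.85 for the 45 pairs).

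From the counts, edgeR 4.0.16 in R 4.3.3 (quasi-likelihood test after TMM and the filterByExpr filter, Benjamini-Hochberg over all genes) compared E with NE without covariates; the thresholds follow the study's methods, 2-fold and an FDR no higher than 0.05. Alternatives were DESeq2 1.42.0, limma 3.58.1 on log2(FPKM + 1), no TMM, no filter, the replicate number as a block, and leaving out each tumor. Ratios used FPKM + 0.1. With 1 library per mouse, p-values measure the spread between mice. Named with values were the 3 members of each class with the highest mean FPKM and the 3 with the smallest p, both genes of each ratio, members with 0 reads in every tumor, members without overlap between groups, and up to 6 members with a tumor past Dixon's limit. B4galt2, C1galt1c1, Xxylt1 and all further members given with values fall outside this rule and were named after their values were seen, most to complete a step. Members, lists and tests were chosen with earlier results of these data known.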

Additional observations from a re-analysis of the deposited data

Results flagged for a closer look

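Within a group of 5 tumors, one tumor stood apart by Dixon's test at the 95% level in 11 of 146 groups of member values, where chance alone gives about 1 in 20, or 7.3 of 146. High values were those of E5 for Gxylt2 (1.82 FPKM), Galnt6 (7.80 FPKM), Hs3st3b1 (2.06 FPKM), B4galt1 (61.3 FPKM) and Colgalt1 (48.8 FPKM), those of NE4 for Galnt17 (1.40 FPKM), Extl1 (2.75 FPKM) and Hs3st5 (0.251 FPKM), and that of E2 for Extl1 (0.854 FPKM). Low values were those of NE4 for Chsy1 (12.9 FPKM) and of E3 for Pofut2 (10.5 FPKM). Of the sums over a class, the chondroitin sum of NE4 (113.5 FPKM), the O-glycan sum of NE4 (404.9 FPKM) and the O-glycan sum of E5 (495.3 FPKM) stood apart. Of the marker scores, in mean log2(CPM + 1), the macrophage score of NE1 (5.84), the neutrophil score of E5 (5.08), and the epithelial and differentiated keratinocyte scores of NE5 (2.82 and 2.49) stood apart. The same tumors thus recur, E5 and NE4 in 9 of the 11 member values.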

How the results depend on the processing

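No member was called under any alternative run. DESeq2 found 3 genes at an FDR of at most 0.05 in the whole table, none of them a member. At an unadjusted p of at most 0.05 it counted 13 members higher and 1 lower (3.04% and 2.88% of all genes). Limma and the fit without TMM each counted 14 higher and 0 lower. The shares of all genes moved the same way. They were 3.57% higher and 1.19% lower with limma, and 3.51% and 1.16% without TMM. The fit without a filter counted 11 higher and 1 lower of 82 (2.03% and 2.33% of all genes). The number of members at that threshold ranged from 5 to 17 when 1 tumor was left out. The 17, without NE1, were 15 higher and 2 lower (4.5% and 4.68% of all genes). Without E5 and NE4 together the number was 5 (an alternative chosen after seeing the data). Members without overlap numbered 1 of 73 on the FPKM scale (0.695% of all genes) and 0 to 5 without 1 tumor (0.977 to 3.18% of all genes). The study speaks of matched pairs, but neither the labels nor the methods say what a shared number marks, and the numbers were not treated as pairs: the deviations of same-numbered tumors correlated at -0.32 to 0.32, above 0.1 in 1 of 5 pairs, and 1 of 10 tumors was closest to its own number. With the replicate block 14 members were higher and 0 lower (2.81% and 2.47% of all genes), Hs6st1 and C1galt1c1 no longer among them. With the block and without E5, also chosen after seeing the data, 5 were higher and 0 lower (1.38% and 0.823% of all genes).

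Leaving out 1 tumor moved the class medians to 0.0716 to 0.187 (linkage), 0.115 to 0.301 (chondroitin), 0.108 to 0.156 (heparan) and 0.0840 to 0.122 (O-glycan); the linkage median was 0.0303 without E5 and NE4 together, and the O-glycan median 0.125 without TMM. Differences in ratio changed sign with the pseudocount for Chsy1/Chsy3 (0.112 at a pseudocount of 1) and Hs6st1/Hs6st2 (-0.39 at 0.01). Without 1 tumor they ranged from -0.0743 to 0.363 for Xylt1/Xylt2, -0.0573 to 0.0756 for Ext1/Ext2, -0.157 to 0.0449 for Ndst1/Ndst2, -0.377 to 0.440 for Hs6st1/Hs6st2, -0.285 to 0.0206 for Chsy1/Chsy3, -0.0560 to 0.0279 for Pofut1/Pofut2 and -0.0249 to 0.0664 for Lfng/Rfng. Score differences ranged from -0.598 to -0.163 (epithelial), -0.105 to 0.162 (endothelial), -0.949 to 1.59 (skeletal muscle), -0.108 to 0.147 (T or NK cell), -0.521 to 0.0717 (differentiated keratinocyte) and -0.522 to 0.139 (adipocyte). The cause of these shifts was not tested. Members below 1 FPKM rest on few reads, and the changes of the 14 members at an unadjusted p of at most 0.05 lie under the 2-fold threshold whatever their p.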
